A study of Mus musculus with 18 samples.

Results

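The oxygen response of mouse tail tendon fibroblasts (TFs) was measured as the mean of 3 effects of 1% against 20% O2, 1 from each of 3 arms of the experiment. The first arm held Ctrl TFs from Cre-negative mice that the labels call wild-type. The paper describes Cre-negative Ctrl mice as Hif1a flox/flox, bred from flox/flox mothers. The second held cKO TFs from mice with Hif1a fl/fl and the ScxCre transgene, in which the Scleraxis promoter drives Cre in tendon-lineage cells, and the labels call these Hif1a knockout. The third held Ctrl TFs given Cre gesicles, membrane vesicles carrying Cre protein into cultured cells. All TFs came from tails of mice of both sexes aged 4 to 6 months, crawled out of collagen gel, were passaged on plastic and then spent 4 days at either O2 level. Each arm had 3 libraries per O2 level, so all 18 libraries of the series entered, 9 at each level. The comparison asks which genes move with O2 too weakly to be called in a single arm of 3 against 3 libraries. Effects of single arms were tested within the fit of all 18 libraries, with 1 shared estimate of the spread, unless stated.

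Cells short of oxygen stabilize hypoxia-inducible factors, which bind DNA and raise genes of glycolysis, glucose and lactate transport and blood vessel growth. Low oxygen is also known to slow processes that cost the cell much energy, among them ribosome assembly, protein synthesis and division. Ribosomes are built in the nucleolus, where polymerase I copies ribosomal RNA and a large set of assembly factors folds, cuts and modifies it. Tendon fibroblasts secrete and organize the collagen matrix of the tendon, so their culture also carries strong expression of matrix genes.

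Library totals ranged from 6857558 to 51806453 counts, with the smallest in the library labelled cKO 1% O2 replicate 1. Levels are given as CPM, counts scaled to a common library size with TMM, whose factors ranged from 0.962 to 1.03. Of the tendon fibroblast markers, Col1a1, Col1a2, Thbs4, Fmod, Comp, Tnmd, Mkx and Scx were present in every library, while Kera was at 0 in 7 of 18 and was not tested. Several defining markers of other cell types were at or near 0: Myf5 and Pax7 had no count, and Myod1, Myog, Tie1, Adgre1, Acan and Col9a1 had none in at least 16 of 18 libraries. Other members of these lists were present. The myogenic marker Des was in every library, at 1.72 to 7.46 CPM, and the endothelial markers Pecam1 and Cdh5 were at 0 in only 4 and 5 libraries. The 4 Schwann cell markers summed to 5.33 to 16.3 CPM in 20% O2 and 5.80 to 15.7 CPM in 1% O2, most of it S100b. The summed level of 4 mural cell markers ranged from 19.3 to 88.5 CPM in 20% O2 and from 18.2 to 55.6 CPM in 1% O2, and that of 5 macrophage markers from 10.6 to 25.4 and from 12.2 to 23.2 CPM. The 5 chondrocyte markers summed to 24.9 to 46.4 CPM in 20% O2 and 24.5 to 51.6 CPM in 1% O2, most of it Sox9, which ranged from 20.6 to 50.8 CPM over all libraries, and Col2a1 was at 0 in 1 library. Hif1a itself did not pass the test, with 294, 347 and 431 CPM as the lowest, median and highest level in 20% O2 and 365, 398 and 504 CPM in 1% O2. Reads of the floxed exon were not counted apart, so this level does not check the cKO label.

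The libraries do not stand for 18 mice. Ctrl and gesicle libraries with the same number deviated together from their group means, with a correlation across 11722 genes from 0.382 to 0.631 in 20% O2 and from 0.188 to 0.382 in 1% O2, against a mean of -0.261 and -0.145 for pairs with different numbers. Their counts of sex-linked genes also matched in 3 of 3 numbers. The sources used here do not say whether these cultures share a mouse. The same calls were therefore made with each such pair of libraries summed, which left 12 libraries and a mean of 2 arms, and those counts stand beside the main ones. Libraries of 1 arm and number also matched in sex-linked counts between the 2 O2 levels, in 3 of 3 numbers of each arm. By these counts 1 number was male and 2 were female in Ctrl and in the gesicle arm, against 2 and 1 in cKO. A match of sex alone does not show that libraries share a mouse. P-values measure the spread between the cultures.

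Of 16174 genes tested, 3980 were called in the mean of 3 arms at an adjusted p under 0.05 with no minimum of fold change, or 24.6%. Of these, 2086 (12.9%) were higher and 1894 (11.7%) were lower in 1% O2. Single arms called far fewer, with 391 higher (2.42%) and 130 lower (0.804%) in Ctrl, 410 (2.53%) and 227 (1.4%) in cKO, and 312 (1.93%) and 160 (0.989%) in the gesicle arm. With Ctrl and gesicle libraries summed, 1100 of 16817 genes were higher (6.54%) and 1066 were lower (6.34%), and 2130 of the 3980 genes, or 53.5%, were called in the same direction.

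**Figure D1:**
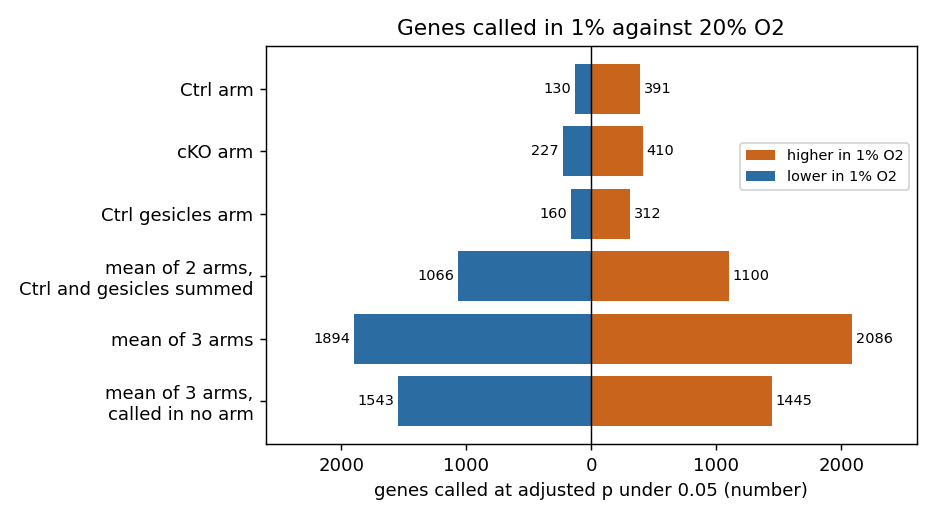
Number of genes called at an adjusted p under 0.05, with genes higher in 1% O2 to the right and genes lower to the left. Each single arm called more genes higher than lower, and the mean of 3 arms called 2086 higher and 1894 lower.

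The genes called in the mean and in none of the arms numbered 2988, or 18.5% of all tested. They split almost evenly, with 1543 lower (9.54% of all tested) and 1445 higher (8.93%), so 51.6% were lower and decreases were not the large majority. Among the 992 genes called in the mean and in at least 1 arm, 35.4% were lower. The balance moved with the processing: 45.8% of genes called only in the mean were lower with upper quartile scaling, 47.5% with offsets for GC content and transcript length, 54.0% with the pairs of libraries summed and 57.2% with DESeq2. Decreases were thus a larger share of the weak calls than of the strong ones, and how far they exceeded increases, or whether they did, depended on the scaling.

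Weak here meant small shifts measured with a smaller error. The genes called only in the mean had a median absolute log2 fold change of 0.45, against 0.72 for those also called in an arm, and 1908 of 2988 (63.9%) differed by less than 1.5-fold. The lower ones had a median of 0.50 and the higher ones 0.41. The median standard error of these genes was 0.12 on the log2 scale in the mean, against 0.21 in each arm and 0.145 with the pairs summed. In the mean it was 0.137 for the lower genes, as for all genes tested, and 0.107 for the higher ones. In Ctrl it was 0.237 and 0.185, so the decreases were not the smaller shifts but those measured with the larger error. In 49 of the 1543 lower genes all 9 libraries in 1% O2 lay below all 9 in 20% O2, and in 73 of the 1445 higher genes they lay above. Over all genes tested such separation was seen in 154 genes (0.952%) downward and in 388 (2.4%) upward. When the pairs were summed, 708 of the 1543 lower genes (45.9%) and 482 of the 1445 higher genes (33.4%) were still called. That fit also gives cKO a larger weight and tests other genes, and which of these changes lost the calls was not tested.

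The genes lower only in the mean, taken in order of p, were led by Itprip, an interactor of the inositol trisphosphate receptor. Its lowest, median and highest level was 31.8, 58.4 and 70.6 CPM in 20% O2 and 21.1, 38.4 and 46.4 CPM in 1% O2. Its log2 fold change was -0.55 (SE 0.09, adjusted p = 4.0e-04). All libraries in 1% O2 were below those in 20% O2 within each arm, and the ranges overlapped across arms, with cKO libraries low at both O2 levels. The effect was -0.55 in Ctrl, -0.56 in cKO and -0.53 in the gesicle arm, and the adjusted p of the single arms was between 0.051 and 0.069. Itprip lies on the minus strand at chr19:47894602-47919299 of GRCm38. Its adjusted p was 0.0080 with the pairs summed.

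Srrm1, a coactivator of splicing rich in serine and arginine, moved from 65.2, 76.2 and 82.7 CPM to 54.2, 58.0 and 64.3 CPM, with no overlap of the 9 and 9 libraries. Its log2 fold change was -0.37 (SE 0.06, adjusted p = 4.1e-04). Syne3, a nesprin of the outer nuclear membrane, moved from 11.3, 16.0 and 19.6 CPM to 5.69, 8.38 and 12.1 CPM, which gave -0.75 on the log2 scale (SE 0.12). Its libraries overlapped only at the edges, although in each of the 9 same-numbered pairs the one in 1% O2 was lower. Pcm1, the scaffold of centriolar satellites, had 17.9, 29.98 and 34.9 CPM in 20% O2 and 14.4, 18.1 and 25.2 CPM in 1% O2, with the library labelled cKO 20% O2 replicate 2 lowest among the former. Its log2 fold change was -0.66 (SE 0.12, adjusted p = 8.8e-04).

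Others among the leading decreases belong to signaling, secretion and RNA modification. Ror1, a receptor of Wnt5a, had 7.54, 10.95 and 18.8 CPM in 20% O2 and 2.42, 4.08 and 7.30 CPM in 1% O2, and the 2 ranges did not meet. Its log2 fold change of -1.32 (SE 0.22) was the largest of the 11 described here. Fam20c, the kinase of secreted proteins, fell by 0.54 on the log2 scale (SE 0.09), from a median of 76.0 to 55.8 CPM without overlap. B4galt5, which makes lactosylceramide, fell by 0.79 (SE 0.14), from a median of 49.97 to 25.9 CPM with overlap. Trmt1, which methylates transfer RNA, fell by 0.40 (SE 0.07), also without overlap. Purb, a single-stranded DNA-binding repressor, Slco3a1, an organic anion transporter, and Zfp280c, a zinc finger protein, fell by 0.44, 0.53 and 0.54. Each of the 11 was lower in 9 of 9 same-numbered pairs of an arm, although the numbers may not match libraries. Over all 16174 genes tested, 2410 had all 9 such pairs in 1 direction. With Ctrl and gesicle libraries summed, each of the 11 stayed under 0.05, at adjusted p-values from 0.0026 to 0.015.

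**Figure D2:**
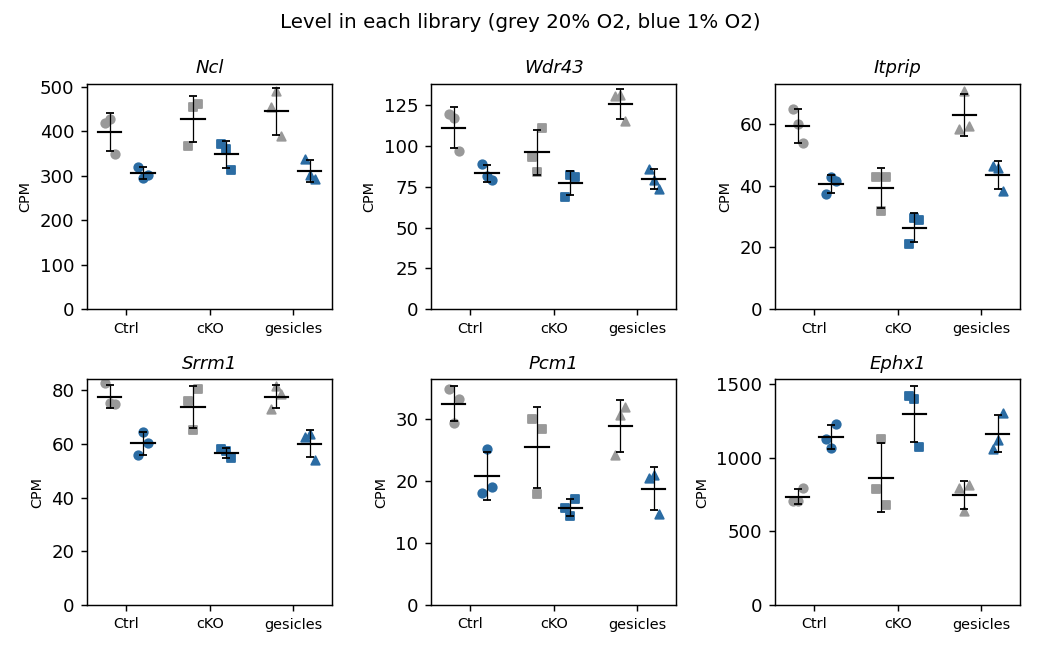
CPM in each library for Ncl, Wdr43, Itprip, Srrm1, Pcm1 and Ephx1, with 3 libraries per arm and O2 level, where bars mark the group mean and whiskers 1 SD. In each arm the mean in 1% O2 (blue) lies below the mean in 20% O2 (grey) for the first 5 genes and above it for Ephx1.

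Among genes called only in the mean, the largest decreases were in genes with a wide spread between cultures. Atp10a, a lipid flippase, had 3.08, 12.2 and 26.4 CPM in 20% O2 and 1.85, 3.50 and 6.71 CPM in 1% O2 (log2 fold change -1.50, SE 0.28, adjusted p = 0.0015). Crabp1, which binds retinoic acid in the cytosol, had 18.9, 50.7 and 142 CPM against 8.29, 18.8 and 59.0 CPM (log2 fold change -1.37, SE 0.32). Its effect ranged from -0.81 in Ctrl to -1.81 in the gesicle arm. The collagenase gene Mmp13 had 1.80, 10.2 and 18.7 CPM against 1.10, 2.68 and 9.96 CPM, and the highest library at either level was a cKO one (log2 fold change -1.47, SE 0.36). Notch3, a receptor of mural cells, had a log2 fold change of -1.46 (SE 0.36), and Ano1, a chloride channel, of -1.35 (SE 0.35). Lrrc4c, a synaptic adhesion protein, was the only one of these 6 whose libraries did not overlap, at 5.35 to 17.8 CPM against 1.99 to 5.34 CPM (log2 fold change -1.39, SE 0.25). Ano1 lost its call with the pairs summed, at an adjusted p of 0.055.

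Genes higher only in the mean were led by Ephx1, the microsomal epoxide hydrolase. It had 640, 785 and 1126 CPM in 20% O2 and 1061, 1125 and 1418 CPM in 1% O2 (log2 fold change 0.62, SE 0.10, adjusted p = 3.7e-04). Mfap2, a protein of elastic microfibrils, had 4.78, 9.89 and 20.6 CPM against 13.4, 25.04 and 48.1 CPM (log2 fold change 1.295, SE 0.21). The uncharacterized gene AI597479 and Fam114a2 had no overlap between O2 levels, with log2 fold changes of 0.56 and 0.39. Cd1d1, which presents lipids, and Dixdc1, a Wnt pathway protein, differed by 0.69 and 0.76. All 6 were higher in 9 of 9 pairs.

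For scale, Slc16a3, the lactate exporter MCT4, had 1.11, 1.71 and 2.92 CPM in 20% O2 and 65.4, 97.9 and 180 CPM in 1% O2, and it was called in all 3 arms with a log2 fold change of 5.93 in the mean (SE 0.16). Ndufa4l2 and Ankrd37 followed at 5.37 and 3.06. The lowest of the genes called in all 3 arms were Pi16 at -2.35, Pde9a at -2.05 and Fzd6 at -1.80. In all, 167 genes were called higher and 43 lower in every arm, and all of these stayed called with the pairs summed. At the other end, Wwtr1 (log2 fold change -0.26) and Wwc2 (-0.36) were just inside the threshold and D5Ertd579e (-0.58) and Dtwd2 (-0.24) just outside it. None of these 4 was called with the pairs summed.

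The effects in the arms were compared directly. No gene was called for a difference of the O2 effect between the 3 arms in the 2-degree-of-freedom test of edgeR, and 281 genes, or 1.74%, had an unadjusted p under 0.05. DESeq2 likewise called 0, with 363 genes (2.25%) under the unadjusted threshold. Leaving out the library labelled cKO 20% O2 replicate 1 gave 1 gene. The shares of 1.74% and 2.25% lie below the 0.05 expected at this threshold if no gene differed, so these tests may be conservative here. The reason was not tested. A missed threshold does not show that the arms responded alike.

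An arm that took no part in the choice of genes allows the weak calls to be measured again. Genes were chosen as called in the mean of 2 arms and in neither of these arms, and then measured in the third. With cKO left out, whose genotype sets its mice apart from the other arms, 803 genes were chosen as lower, and 769 of them (95.8%) were lower in cKO as well, against 51.7% of the 15042 genes tested in both fits. Their median log2 fold change in cKO was -0.42, close to the -0.43 in the arms that chose them. At an unadjusted p under 0.05, 261 of the 803 (32.5%) were lower in cKO alone, against 7.07% of all genes, and only 2 were called after adjustment. The arm left out was fitted on its own 6 libraries. For cKO this fit called 17 of the 15042 genes lower and 67 higher, against 227 and 410 in the fit of all 18. Of 913 genes chosen as higher, 889 (97.4%) were higher in cKO, with a median of 0.39.

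With Ctrl left out, 581 of 613 chosen as lower (94.8%) were lower there and 598 of 611 chosen as higher were higher. With the gesicle arm left out these numbers were 654 of 657 (99.5%) and 728 of 743. Because Ctrl and gesicle libraries deviate together, these latter checks are not independent of the choice. Same-numbered Ctrl and cKO libraries correlated from -0.108 to -0.0081 in 20% O2 and from 0.0367 to 0.352 in 1% O2. Pairs with different numbers had a mean of 0.034 in 20% O2 and -0.101 in 1% O2. In 1% O2 same-numbered Ctrl and cKO libraries thus also deviated together, so the cKO check may not be fully independent of the choice either. The part of transcript length, described next, in this result was not tested.

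**Figure D3:**
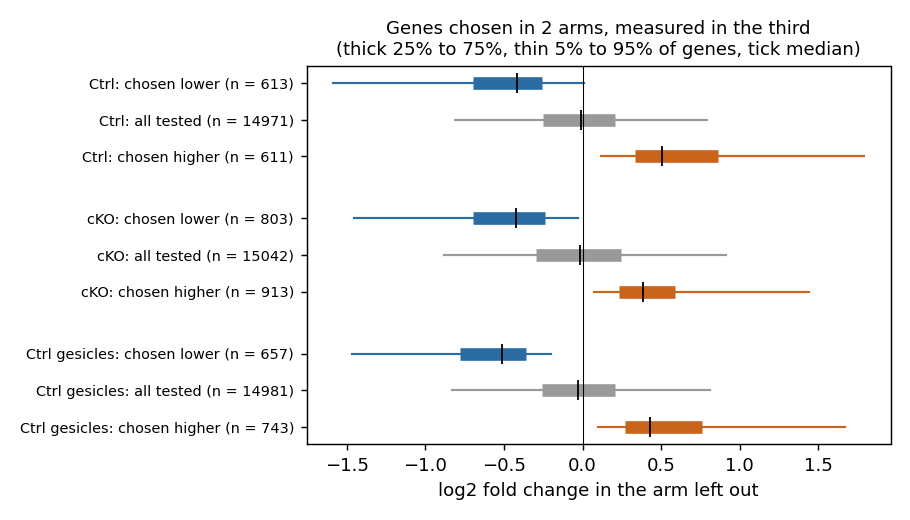
Log2 fold change in the arm left out, for genes chosen as lower or higher in the mean of the other 2 arms and for all genes tested. Thick lines span the middle 50% of genes and thin lines 90%, and the medians of genes chosen as lower were -0.42 in Ctrl, -0.42 in cKO and -0.51 in the gesicle arm.

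Longer transcripts were called lower more often, in length classes chosen after values were seen. The median transcript was 4015 bases for genes lower only in the mean, 2669.5 for genes higher only in the mean and 3070 for all genes tested, while median GC content was nearly equal, at 49.7%, 49.8% and 49.4%. Among 3189 genes with transcripts over 5000 bases, 17.7% were called lower and 5.58% higher, and among 4553 genes under 2000 bases 5.42% were lower and 14.6% higher. For each library, the median deviation of long transcripts minus that of short ones was computed on the log2 scale. It was -0.86, 0.36 and 0.48 as lowest, median and highest in 20% O2 and -0.74, -0.20 and 0.40 in 1% O2, so the ranges overlapped. The library labelled cKO 20% O2 replicate 2 was the lowest of all, and without it 2574 genes were called higher and 2576 lower. With offsets for GC content and length 2754 genes were higher and 2231 lower, and the long transcripts turned from 565 lower and 178 higher to 360 lower and 567 higher. Short transcripts turned from 247 lower and 665 higher to 644 and 645. Whether length belongs to the response or to RNA quality cannot be told apart here, and counts with the offsets are given below for gene groups whose counts these moved by over 1.5 times.

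**Figure D4:**
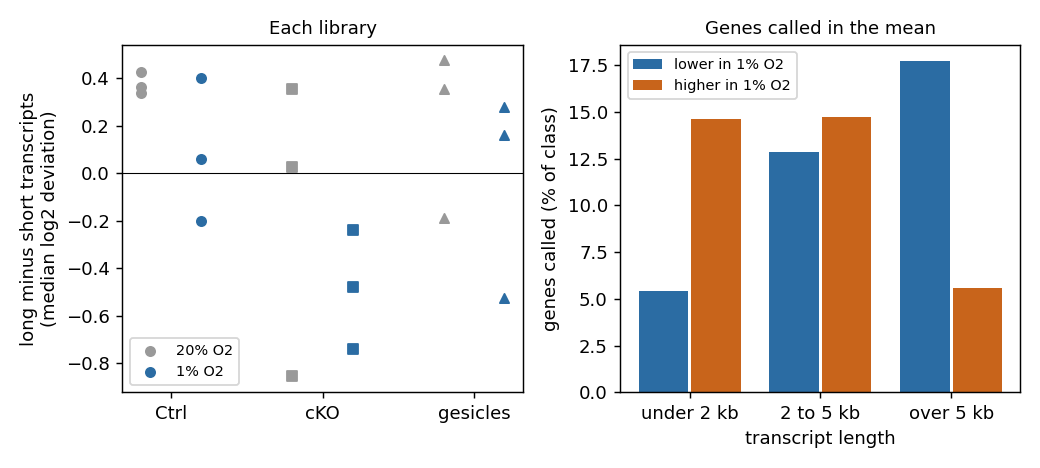
Left, median log2 deviation of transcripts over 5000 bases minus that of transcripts under 2000 bases in each library. Right, share of genes called lower and higher in the mean of 3 arms by transcript length, where the share called lower was 5.42% in the short class and 17.7% in the long class.

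Weak decreases were frequent among nucleolar ribosome biogenesis factors. Of 36 genes tested, 25 were lower and 0 higher, 23 of the 25 were called only in the mean, and the list median was -0.31, against -0.02 for all genes and 11.7% of all genes called lower. Wdr43, a subunit of the small-subunit processome, had 84.0, 115 and 132 CPM in 20% O2 and 68.7, 80.9 and 89.2 CPM in 1% O2 (log2 fold change -0.46, SE 0.07, adjusted p = 3.0e-04), and was lower in 9 of 9 pairs with overlap between arms. Ncl, nucleolin, the abundant organizer of nucleolar chromatin and RNA, had 349, 428 and 491 CPM against 294, 313 and 371 CPM (log2 fold change -0.40, SE 0.07). Only the library labelled cKO 1% O2 replicate 1 exceeded the same-numbered library of its arm in 20% O2. Both were called in the gesicle arm alone as well, at adjusted p-values of 0.0085 and 0.033. No member was called in Ctrl or cKO alone. Summing the pairs left 15 of 36 lower, and offsets left 24.

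Promoter sequences were examined for this group, in which 25 of 36 members were called in 1 direction. The lists described and the background of all RefSeq windows were chosen after values were seen. RefSeq windows on GRCm38 of 250 bases before to 50 after the start were matched for 11266 of 16174 genes tested (69.7%), which is under the 80% set for a comparison of classes of called genes, so that comparison is void. For 32 of the 36 nucleolar genes a window was found. The letters CACGTG, the E-box read by MYC and related factors, were in 9 of the 32 (28.1%), against 7.24% of all 27025 RefSeq windows and 10.0% of the 11266 windows of genes tested. GCGTG was in 25 of 32 (78.1%, against 32.5% and 50.6%) and CCGGAAGT, read by ETS factors, in 9 of 32 (28.1%, against 4.0% and 7.95%). Both strands were searched, and CACGTG contains ACGTG, which was in 13 of 32 (40.6%, against 19.7% and 25.4%). CCAAT was in 9 of 32 and CGCATGCG in 0. These windows were rich in G and C, at a median of 61.2% (60.7% for genes tested), and a match of letters is no evidence of binding. Neither CACGTG nor GCGTG was particular to this list. CACGTG was in 4 of 13 windows (30.8%) of cytosolic aminoacyl-tRNA synthetases, where only 65% of genes had a window. It was in 3 of 22 (13.6%) of the nucleotide list and 2 of 41 (4.88%) of the hypoxia list. GCGTG was in 10 of 13 (76.9%), 16 of 22 (72.7%) and 27 of 41 (65.9%) of these. The 9 nucleolar windows with CACGTG were counted over called and uncalled members, with the 50 bases after the start searched too. To show where this E-box lies, 60 bases before the start are given for 2 called nucleolar genes, with CACGTG in capitals. With 1 chromosome left out of this search, these 2 were the only called members found with CACGTG before the start. Nop2, a methyltransferase of ribosomal RNA, is at chr6:125131796-125131855 on the plus strand and Rrn3, the initiation factor of polymerase I, at chr16:13780624-13780683 on the plus strand. They had log2 fold changes of -0.32 and -0.21 and were chosen for this motif after their values were seen.
Nop2: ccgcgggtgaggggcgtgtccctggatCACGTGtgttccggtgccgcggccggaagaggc
Rrn3: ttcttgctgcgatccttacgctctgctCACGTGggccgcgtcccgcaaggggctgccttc

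Of 24 enzymes that supply nucleotides and one-carbon units, 13 were lower and 0 higher, 11 of them only in the mean, with a list median of -0.31. Shmt1, the cytosolic serine hydroxymethyltransferase, had 4.90, 8.17 and 12.2 CPM in 20% O2 and 1.28, 3.63 and 5.10 CPM in 1% O2 (log2 fold change -1.20, SE 0.21, adjusted p = 8.4e-04). The ranges met only at their edges. Prps1, which makes phosphoribosyl pyrophosphate, had 29.5, 34.3 and 40.4 CPM against 22.4, 25.2 and 27.9 CPM, with no overlap (log2 fold change -0.41, SE 0.08). Summing the pairs left 9 lower, and offsets left 12.

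Of the genes of protein synthesis, 9 of 20 cytosolic aminoacyl-tRNA synthetases were lower and 0 higher, with a median of -0.23. Wars, which charges the tryptophan tRNA, had 93.5, 122 and 143 CPM against 67.4, 84.2 and 96.4 CPM (log2 fold change -0.50, SE 0.08). Rars, its arginine counterpart, had a log2 fold change of -0.30 (SE 0.06). Summing the pairs left 4 of the 20 lower. Among 79 cytosolic ribosomal proteins 12 were lower and 0 higher, or 15.2%, near the 11.7% of all genes, although 76 of 79 values were negative and the median was -0.23. Rpl3 and Rps12, of the large and small subunit, had log2 fold changes of -0.47 and -0.50 (SE 0.10 and 0.13). The count of this group depended most on processing: 62 were lower with offsets, 1 with the pairs summed, 6 without the library labelled cKO 20% O2 replicate 2 and 5 without cKO 1% O2 replicate 1. Ribosomal protein genes have processed pseudogenes in number, so their counts are uncertain where reads could be split.

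RNA handling moved in part, and genes of transport into the nucleus were called lower at a share near that of all genes. Of 41 splicing factors 14 (34.1%) were lower and 1 (2.44%) higher, against 11.7% and 12.9% of all genes, with a median of -0.11. Hnrnpd, which binds AU-rich RNA, had 39.8, 53.0 and 67.8 CPM against 31.9, 37.3 and 44.7 CPM (log2 fold change -0.53, SE 0.09), Hnrnpl had a log2 fold change of -0.37, and Hnrnpc was the one called higher, at 0.17 (SE 0.05). The number lower was 8 with the pairs summed, and offsets gave 17 lower and 3 higher. Of 43 nuclear pore proteins and transport receptors 7 (16.3%) were lower and 1 (2.33%) higher, with a median of -0.22. Kpnb1, importin beta, had 78.2, 119 and 141 CPM against 53.6, 72.2 and 103 CPM (log2 fold change -0.62, SE 0.10), and Nup62 had -0.40. Nup88 was the one called higher, at 0.21. The number lower was 21 without cKO 20% O2 replicate 2, 11 with offsets, which gave 2 higher, and 4 with the pairs summed.

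Among genes of division, all 24 mitosis genes tested had a negative value in the mean, with a median of -0.64, while 5 (20.8%) were called lower and 0 higher. The list median was -0.04 in Ctrl, -0.99 in cKO and -0.90 in the gesicle arm, and a difference between arms was called for no single gene. Cdc20, the activator of the anaphase-promoting complex, had 18.7, 42.7 and 79.2 CPM in 20% O2 and 13.6, 21.7 and 36.1 CPM in 1% O2 (log2 fold change -0.99, SE 0.22, adjusted p = 0.0047). Its effect was -0.43 in Ctrl, -1.23 in cKO and -1.30 in the gesicle arm, and 8 of 9 pairs were lower. Kif23, a kinesin of the midbody, had a log2 fold change of -0.89 (SE 0.25). With the pairs summed 4 were lower, and without cKO 20% O2 replicate 2 and without cKO 1% O2 replicate 1 the numbers were 8 and 3. In bulk RNA fewer dividing cells and less RNA per dividing cell cannot be told apart.

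Of 34 DNA replication genes 33 had a negative value, with a median of -0.24, and 5 (14.7%, near the 11.7% of all genes) were called lower, against 8 with offsets and 4 with the pairs summed. The list median was 0.02 in Ctrl, -0.40 in cKO and -0.53 in the gesicle arm. Rrm1, the large subunit of ribonucleotide reductase, had 119, 169 and 222 CPM against 105, 117 and 178 CPM (log2 fold change -0.46, SE 0.11). Rfc3, of the clamp loader, had -0.39 (SE 0.10). In recombination and mismatch repair 1 of 21 was lower, Fanca at -0.82 (SE 0.24), and the number was 5 without cKO 20% O2 replicate 2, 2 with offsets and 1 with the pairs summed. This list also had a median near 0 in Ctrl (0.02), against -0.52 in cKO and -0.54 in the gesicle arm.

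For 21 of the 24 mitosis genes a promoter window was found, and 17 of these 21 (81.0%) held CCAAT or its reverse complement, against 37.9% of all RefSeq windows and 38.9% of those of genes tested. CCAAT is the box read by NF-Y and is known from promoters of G2 and M phase genes. The share covers called and uncalled mitosis genes and was not particular to them. CCAAT was in 15 of 16 windows of the cholesterol list, where only 69.6% of genes had a window. It was in 11 of 22 windows of the nucleotide list and 9 of 32 of the nucleolar list. Stretches of 60 bases with a match before the start are shown for 4 of the 5 called mitosis genes, with the box in capitals on either strand. They are Cdc20 at chr4:118437344-118437403, Kif23 at chr9:61946800-61946859 and Ccnb2, a B-type cyclin, at chr9:70421555-70421614, all on the minus strand, and Cenpe, a kinesin of the kinetochore, at chr3:135212503-135212562 on the plus strand. Ccnb2 and Cenpe, named for the motif after their values were seen, had log2 fold changes of -0.79 and -0.95.
Cdc20: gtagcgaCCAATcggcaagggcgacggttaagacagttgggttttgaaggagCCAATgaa
Kif23: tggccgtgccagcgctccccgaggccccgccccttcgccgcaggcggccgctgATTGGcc
Ccnb2: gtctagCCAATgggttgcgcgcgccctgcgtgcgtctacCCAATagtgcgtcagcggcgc
Cenpe: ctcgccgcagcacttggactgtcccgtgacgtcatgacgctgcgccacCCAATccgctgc

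Cholesterol synthesis and uptake was the group with the strongest decrease. Of 23 genes 21 were lower and 0 higher, with a median of -0.73, and 4 of the 21 were called only in the mean. Hmgcs1, the synthase upstream of HMG-CoA reductase, had 412, 448 and 528 CPM in 20% O2 and 193, 223 and 258 CPM in 1% O2 (log2 fold change -1.06, SE 0.07, adjusted p = 1.2e-07). Insig1, the sterol sensor that retains SREBP in the endoplasmic reticulum, had -1.15 (SE 0.09). Neither gene overlapped between O2 levels. Ctrl alone called 6 members, against 15 in cKO and 15 in the gesicle arm, and a difference between arms was called for no gene. Also with the pairs summed 21 were lower.

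Mitochondrial groups shifted little. In the respiratory chain and ATP synthase 1 of 74 genes was lower and 0 were higher, with a median of -0.03. That 1 gene was Ndufs8, a subunit of complex I, with 36.1, 42.0 and 69.9 CPM against 28.5, 33.2 and 38.4 CPM (log2 fold change -0.40, SE 0.10). This count was unsteady, since offsets gave 20 lower and 1 higher, and leaving out cKO 20% O2 replicate 2 gave 1 lower and 12 higher, and the pairs summed 1 lower. Of 78 mitochondrial ribosomal proteins 1 was lower, Mrps18b at -0.37, and 3 were higher, among them Mrpl14 at 0.47 and Mrps12 at 0.37, while offsets gave 17 lower and 5 higher and leaving out that library 2 lower and 10 higher, and the pairs summed 1 lower. Of 18 genes of the TCA cycle and pyruvate dehydrogenase 2 were lower, with offsets 8, and 1 higher. Dlst, of the oxoglutarate dehydrogenase complex, had 110, 125 and 140 CPM against 96.0, 99.8 and 104 CPM without overlap (log2 fold change -0.32, SE 0.05), Suclg2 had -0.24, and Dlat was the one called higher, at 0.21, but not with the pairs summed, while offsets gave 2 higher.

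Import and folding in mitochondria gave 5 of 26 lower (19.2%, against 11.7% of all genes) and 0 higher. The number lower was 10 with offsets and 1 with the pairs summed. Lonp1, the matrix protease, had -0.46 (SE 0.09) and Hspa9, the matrix Hsp70, -0.33 (SE 0.07). Of 20 genes that maintain mitochondrial DNA and RNA 2 (10%) were lower, Lrpprc at -0.55 and Pprc1 at -0.58. Another 2 (10%) were higher, Tfb1m at 0.46 and Mterf4 at 0.36, and the pairs summed gave 1 lower and 2 higher. Fatty acid oxidation had 3 of 20 lower (15%), among them Hadha at -0.30, and 4 higher (20%), among them Etfdh at 0.26 and Slc25a20 at 0.28. Over all genes the shares were 11.7% and 12.9%, and in this list the pairs summed gave 1 lower and 2 higher. Of 38 proteasome subunits 1 was lower, Psmb10 of the immunoproteasome at -0.58, and 2 were higher, Psmd11 at 0.31 and Psmd5 at 0.30, while offsets gave 10 lower, leaving out cKO 20% O2 replicate 2 gave 6 higher, and the pairs summed gave 0 in either direction.

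Matrix, cytoskeletal and signaling genes are read against the 11.7% of all genes called lower and 12.9% called higher. Of 41 genes for collagens and matrix 5 (12.2%) were lower, near that background, and 2 (4.88%) were higher, below it, with a median of -0.27 that became 0.01 with offsets, under which 7 were higher. Col8a1, a network collagen, had 484, 745 and 982 CPM against 243, 463 and 689 CPM (log2 fold change -0.58, SE 0.16). Dcn, decorin, had -0.61 (SE 0.17), with -0.79 in Ctrl, -0.18 in cKO and -0.87 in the gesicle arm. It ranged from 108 to 939 CPM within 1% O2, where its mean was 732 CPM in cKO, 122 CPM in Ctrl and 157 CPM in the gesicle arm. Dcn was not called with the pairs summed, at an adjusted p of 0.088. Fmod, fibromodulin, which shapes collagen fibrils in tendon, had 347, 569 and 805 CPM against 638, 1053 and 1256 CPM (log2 fold change 0.70, SE 0.16), and Fbln5, an elastic fiber protein, had 0.42 (SE 0.12). In this list 1 gene was lower with the pairs summed, and 9 were lower without cKO 20% O2 replicate 2. Of 9 tendon markers tested, Fmod and Comp, at 0.62 (SE 0.21), were higher and 0 lower, and Comp was not called with the pairs summed, at an adjusted p of 0.11.

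Of 24 actin genes and targets of SRF or YAP 7 (29.2%) were lower and 3 (12.5%) higher, and 6 and 2 with the pairs summed. Zyx, zyxin of focal adhesions, had 871, 951 and 1164 CPM against 528, 667 and 795 CPM without overlap (log2 fold change -0.53, SE 0.06), and was called in all 3 arms. The tropomyosins moved apart, with Tpm1 at -0.52 (SE 0.08) and Tpm4 at 0.40 (SE 0.08), and Filip1l had 0.54. Early genes induced by growth factors were 7 of 28 (25%) lower and 4 (14.3%) higher, and 4 and 1 with the pairs summed, with Nr4a1 at -1.37 (SE 0.11) and Egr2 at -0.95 (SE 0.22) among the former and Ier3 at 0.88 and Fosl1 at 0.41 among the latter. Of 16 BMP-SMAD genes 2 (12.5%) were lower, the inhibitors Smad7 at -0.61 (SE 0.15) and Nog at -0.95 (SE 0.27), and 1 (6.25%) was higher, the BMP antagonist Grem1, at 0.71 (SE 0.18), and of these only Smad7 was called with the pairs summed.

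Of 21 JmjC and TET demethylases, enzymes that use O2, 4 (19.0%) were lower and 1 (4.76%) higher, against 11.7% and 12.9% of all genes. The median of -0.12 turned to 0.11 with offsets, which gave 3 lower and 6 higher. The pairs summed gave 3 lower and 0 higher. Tet2 had 5.12, 8.003 and 11.1 CPM against 3.41, 4.40 and 5.92 CPM (log2 fold change -0.74, SE 0.14), Kdm4a had -0.50, and Kdm3a, a known target of hypoxia-inducible factors, had 0.38 (SE 0.12). Among 30 interferon-stimulated genes edgeR called none, with 2 lower at an unadjusted p under 0.05 and 1 lower by limma voom. The list median was -1.27 in Ctrl, 1.24 in cKO and -1.39 in the gesicle arm, so its median of -0.36 in the mean describes no single arm, and a difference between arms was called for none of these genes. Ifih1, an RNA sensor, ranged from 6.901 to 189 CPM within 20% O2.

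Of 47 genes of the hypoxia response 40 were higher and 2 lower, and 8 of the 40 were called only in the mean, with 35 higher and 0 lower with the pairs summed. The background called higher was 12.9%. The 2 lower genes were Pfkfb4, at 6.42, 14.5 and 16.6 CPM against 6.43, 10.3 and 12.7 CPM (log2 fold change -0.42, SE 0.13), and the hexokinase Hk2 at -0.49 (SE 0.16). Both code for enzymes of sugar phosphorylation that are known as targets of hypoxia-inducible factors in other cells. Neither was called with the pairs summed, at adjusted p-values of 0.16 and 0.061. Among the higher genes Pfkl, liver-type phosphofructokinase, had a log2 fold change of 2.18 (SE 0.07).

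In the unfolded protein and ATF4 response 13 of 20 were higher and 0 lower, also with the pairs summed, with a median of 0.46. The chaperones Creld2 and Pdia3 had 0.65 (SE 0.08) and 0.47 (SE 0.06). Of 22 NRF2 targets and antioxidant enzymes 13 were higher, with Hmox1, heme oxygenase, at 1.78 and Gclm, of glutathione synthesis, at 1.31, and 1 was lower, the peroxidase Gpx1 at -0.52 (SE 0.13), and the pairs summed gave 11 and 1. Of 29 genes of lysosome and autophagy 9 (31.0%, against 12.9% of all genes) were higher, 8 of them only in the mean, and 1 (3.45%) was lower. Gabarapl1, an ATG8 protein of autophagosomes, had 149, 186 and 203 CPM against 206, 247 and 286 CPM without overlap (log2 fold change 0.44, SE 0.07), Mcoln1, a lysosomal calcium channel, had 0.23, and Atg7 was the lower one, at -0.34. After the pairs were summed, 1 gene of the list was higher.

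**Figure D5:**
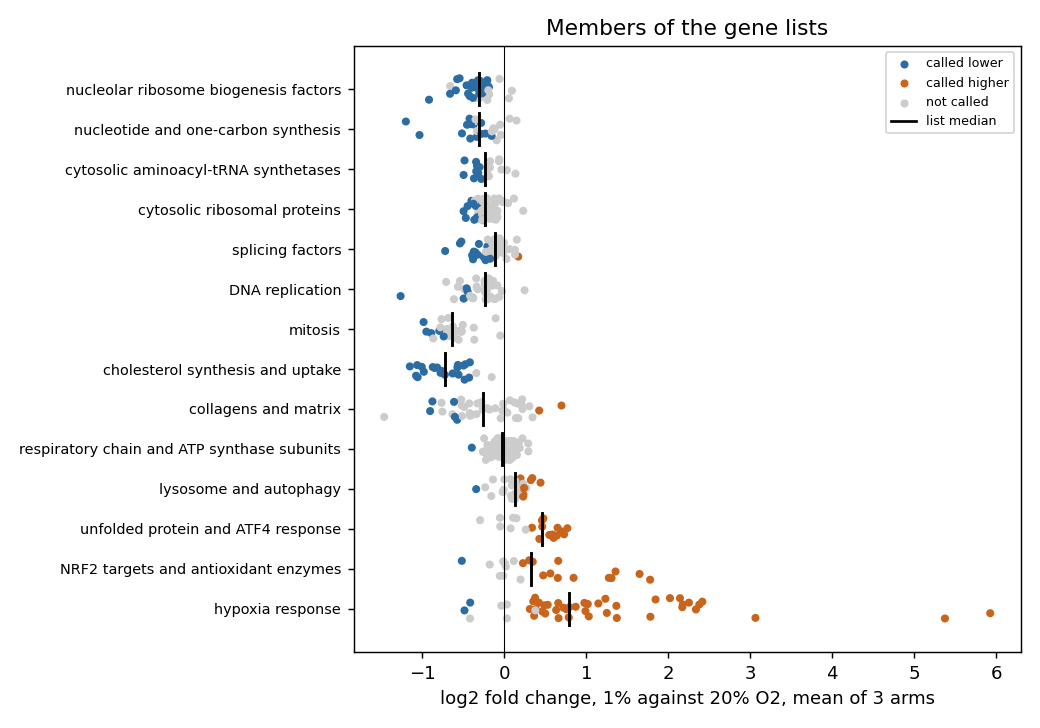
Log2 fold change in the mean of 3 arms for each gene tested in 14 of the lists, with called genes in color and a black line at the list median. The nucleolar, nucleotide and synthetase lists have medians of -0.31, -0.31 and -0.23 with a few members above 0, mitosis has -0.64 with 5 calls, and the hypoxia response above 0 with a median of 0.79.

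Markers of other cell types were in part too low to test, and 2 were called. Rgs5, a mural cell marker, rose from 4.88, 7.85 and 14.1 CPM to 9.21, 13.5 and 23.3 CPM (log2 fold change 0.73, SE 0.14), while the other 3 mural markers were not called and 3 of the 4 values were negative. Kdr, an endothelial receptor, was called lower at a median of 0.394 CPM in 20% O2, and was at 0 in 6 libraries, so its fitted fold change is not given. Pecam1 and Cdh5 did not pass the filter on low counts. The part of such cells in the results above was not tested.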

How the data were processed

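Poly-A RNA was sequenced from 18 libraries of mouse tail TFs. Per the labels and the methods of the study, the authors trimmed reads (Cutadapt), mapped them to GRCm38 (STAR) and quantified genes by RSEM 1.3.3. The deposited values are expected counts, whole numbers with no normalization, and include 3 construct sequences.

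Genes that passed filterByExpr entered the quasi-likelihood test of edgeR 4.0.16 with TMM scaling and 6 coefficients, for 3 arms and 2 O2 levels. The contrast was the mean of 3 O2 effects, and a gene was called at a Benjamini-Hochberg adjusted p under 0.05 over all 16174 genes. Each SE was obtained from the fold change and F (estimate over root F). A count of 0 allows up to 3 counts, or 0.0579 to 0.437 CPM by library, for counting error only. No library was a copy of another (chi-square per degree of freedom at least 15.3). Whether same-numbered libraries at the 2 O2 levels pair was checked by the correlation of their deviations, which was not over 0.1 in every pair.

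Members and lists were chosen with earlier results of these data known. Named are the 12 lower and 6 higher genes of smallest p called only in the mean (at least 5 CPM, no predicted genes), the 6 largest such decreases, up to 2 called genes per direction in each list (else the gene of smallest p), the 3 highest and 3 lowest called in all arms, 4 genes at the threshold and Hif1a. Of these, 2 genes are not reported here. Promoter genes, length classes and list counts without cKO 20% O2 replicate 2 or cKO 1% O2 replicate 1 were chosen after values were seen. Alternatives used DESeq2 1.42.0 and limma 3.58.1 (voom), other scaling and filters, offsets for GC content and length, blocks, summed libraries and left-out libraries or arms. Scripts were tested on simulated data. R 4.3.3 and Python were used.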

Additional observations from a re-analysis of the deposited data

Results flagged for a closer look

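Counts of construct sequences lie outside the O2 comparison and were above those of the other arms. Cre had at most 5 counts and was present in 5 of 6 cKO libraries, with 0 in the 12 libraries of the other arms. The eGFP sequence had at most 5 counts, in 5 of 6 cKO libraries and 0 elsewhere. The tdTomato sequence had at most 3 counts, in 5 of 6 gesicle libraries and 0 elsewhere. The library labelled cKO 1% O2 replicate 1, the shallowest, was the cKO library with no Cre and no eGFP count.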

How the results depend on the processing

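Numbers of genes are given as higher and lower in the mean, then higher and lower only in the mean. They were 2086, 1894, 1445 and 1543 as reported, and 1100, 1066, 737 and 866 with Ctrl and gesicle libraries summed. With these sums and the replicate number within each arm as a block, they were 1128, 1138, 736 and 894. With a block by mouse on all 18 libraries, which took same-numbered Ctrl and gesicle libraries as 1 mouse, they were 2497, 2418, 1403 and 1592. The mouse block, like the block on the sums, was added after seeing the data. They were 784, 533, 493 and 419 against a fold change of 1.2 (glmTreat), 867, 830, 447 and 633 with a fold change of at least 1.5, and 3474, 3715, 667 and 925 with limma voom. Without the Ctrl arm they were 883, 755, 628 and 637, without the gesicle arm 1122, 836, 758 and 681, and without the cKO arm 1171 were lower, with 937 and 833 only in the mean. Left-out arms use fewer libraries and the fold thresholds are stricter by construction, and for voom and the summed libraries the cause was not tested. Single arms called, as higher and lower, 683 and 406 in Ctrl, 817 and 539 in cKO and 592 and 477 in the gesicle arm with DESeq2, and 1734 and 1317, 2684 and 2843, and 732 and 491 with voom.

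Leaving out 1 library at a time gave 1647 to 2574 higher and 1501 to 2576 lower, 1103 to 1539 and 1259 to 1776 only in the mean, and 0 to 1 genes for the difference between arms. The highest counts in the mean came without cKO 20% O2 replicate 2. The replicate block, which pairs libraries at the 2 O2 levels by number within each arm, gave 1980 higher and 1752 lower, and 3370 of the 3980 genes (84.7%) were shared. Same-numbered libraries correlated from 0.277 to 0.674 in Ctrl, -0.062 to 0.518 in cKO and -0.224 to 0.291 in the gesicle arm. Their sex-linked counts matched in 3 of 3 numbers of each arm, but by the correlations the numbers may not pair. Of 114 named genes, 111 kept their call and direction with DESeq2, 107 with the block, 105 with offsets and 88 with the pairs summed. Trp63, which was not called, turned from -0.07 to 0.066 with offsets, 0.0057 without the cKO arm, 0.30 without the gesicle arm, and ranged from -0.21 to 0.065 with a library left out, with values of 0.020, 0.036, 0.055, 0.065 and 0.0079 above 0. The median of the endothelial list turned to 0.070 with no filter on low counts, which tests more of its genes. The shallowest library held 6857558 counts, and thinning all to that total left 1624 higher and 1505 lower.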
